A study of Danio rerio with 6 samples.

Results

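The genes described here copy DNA before a cell divides and then separate the copied chromosomes. They were 50 genes chosen by symbol from a set list, 25 of DNA replication, 3 regulators of the step from G1 into S phase and 22 of mitosis, and all 50 were found among the 53709 gene entries of the deposited count table. Because 9 of them had more than 1 entry, marked by a number after the symbol, they made up 62 entries (30, 3 and 29), and all 62 passed the filter on low counts that 25962 entries passed.

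Dividing cells first mark origins with the origin recognition complex, load the MCM helicase ring there with Cdc6 and Cdt1, and switch it on with Mcm10 and the GINS complex. The fork then needs clamps, polymerases, ligase and a supply of deoxynucleotides. Mitosis is driven by cyclin A and B with Cdk1 and by the Aurora and Polo-like kinases, is held by the spindle checkpoint, and ends when the anaphase-promoting complex and separase release the sister chromatids. In a cut zebrafish fin these genes are used by the cycling blastema, the overlying epidermis and any other dividing cell in the sample, so they are read as proliferation markers of the outgrowth.

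Poly(A) RNA was taken from the regrowing caudal fin tip of male zebrafish (Danio rerio) at 4 days after amputation. Control fish were kept in distilled water and ZnO fish in water that held 2 mg/L of Pro-ZnO, a propolis-made zinc oxide nanoparticle, each fish in 150 mL. The labels give 5 fish per group in triplicate and 3 libraries per group, without strain, age or how fish were assigned to libraries, so the tests read only the scatter among these 6 libraries, which may be technical. No group had the extract or dissolved zinc alone, and these cannot be told apart from the particles. Libraries held 26624174 to 31712994 counts. Levels are given as CPM, library-scaled counts (TMM), and 1 count was worth 0.0316 to 0.0383 CPM.

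The blastema and distal fin markers msx1b, msx3 and and1 were present at mean levels of 76.2, 80.7 and 4321 CPM in controls, beside epidermal keratins and the osteoblast marker sp7, so the tissue was mixed. In bulk RNA, fewer cells of a type and less RNA per cell cannot be told apart. ZnO library 2 stood apart from the other libraries over the whole table. It was the lowest of the 6 libraries for 21.0% of tested entries and the highest for 23.0%, where every other library was lowest for 13.7% to 17.3% and highest for 12.9% to 17.0%. The medians of the replication and mitosis entries and the changes of the MCM ring, orc1, cdc6 and lig1 are given with and without it. Most other results are given only with it.

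Neither replication nor mitosis genes changed between the groups past the test. The quasi-likelihood test of edgeR (Benjamini-Hochberg adjusted p under 0.05) called 0 of the 62 entries, against 0.428% of all tested entries (0.0963% higher and 0.331% lower), a share at which fewer than 1 of 62 would be called. DESeq2 and limma-voom also called 0 of the 62 (4.67% and 0.212% of all entries). At an unadjusted edgeR p under 0.05 there was 1 entry, ccnd1, where 15.9% of all tested entries reached that level. Control and ZnO libraries did not overlap at 4 of the 62, which is a smaller share than the 22.5% of all tested entries. The 4 were mcm7 on the lower side (11.2% of all entries) and ccnd1, ccna2 and cdk1_1 on the higher side (11.3%).

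The intervals show which sizes of change these libraries still allow. Of the 62 entries, 61 had a 95% interval of the log2 fold change that lay wholly within a 2-fold change in either direction, and 45 lay within 1.5-fold. The exception to the first was cdc6_1, a low entry with an interval of -1.12 to 0.19. Among all 25962 entries the same limits held 17210 and 9450. The median interval width was 0.69 log2 units for the members and 0.93 for all entries, and the intervals are not adjusted for the number of members. Over the replication entries the median log2 fold change was -0.09 (8 positive and 22 negative, range -0.47 to 0.14). Over the mitosis entries it was 0.05 (21 positive and 8 negative, range -0.22 to 0.29), and over all tested entries 0.01. Without ZnO library 2 the replication median was -0.01 (14 positive and 16 negative) and the mitosis median 0.02 (17 positive and 12 negative). Without control library 2 the mitosis median was -0.01 (14 positive and 15 negative).

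**Figure D1:**
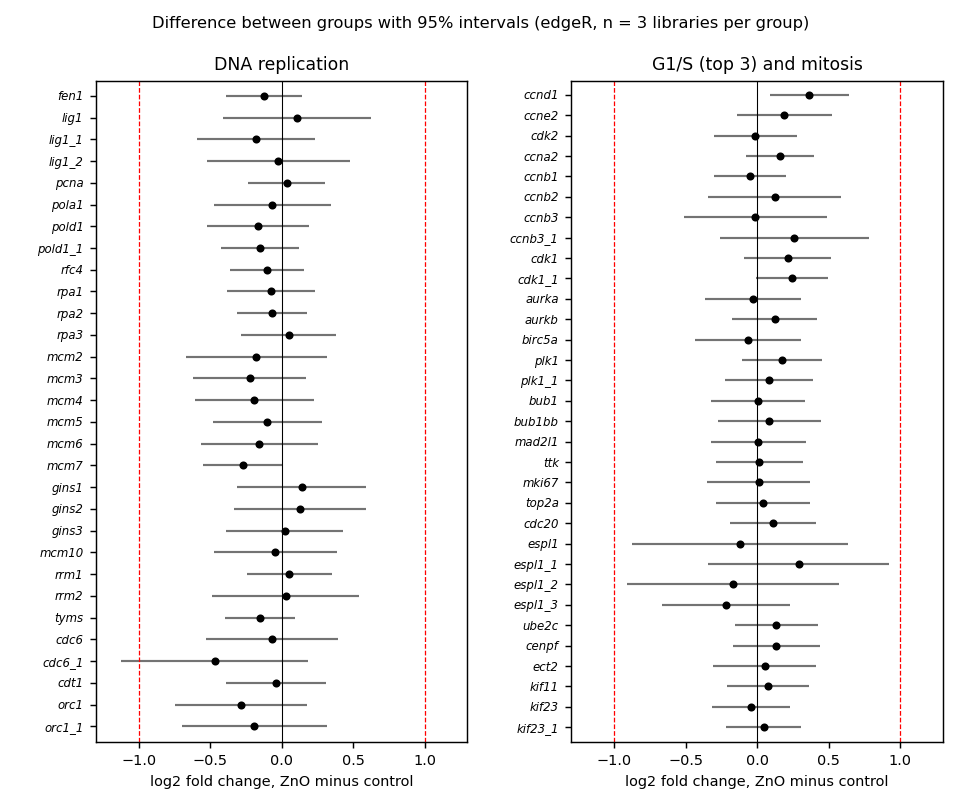
Log2 fold change of ZnO minus control for each of the 62 entries (points, in log2 units on the horizontal axis) with its 95% interval from edgeR (lines), replication at left, G1/S and mitosis at right, n = 3 libraries per group. Dashed red lines mark a 2-fold change, and 61 of the 62 intervals lie between them.

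What varied most among the replication genes was a single library within the ZnO group. ZnO library 2 was the lowest of the 6 for 19 of the 30 replication entries, where it was the lowest for 21.0% of all tested entries. These 19 hold every entry of cdc6, orc1, pold1 and lig1, the 4 replication genes with more than 1 entry. For mitosis, ZnO library 2 was lowest for 4 of the 29 entries (13.8%) and highest for 10 (34.5%, against 23.0% of all tested entries). The summed level of the replication entries was 1618, 1681 and 1456 CPM in control libraries 1, 2 and 3, and 1550.1, 1268 and 1633 CPM in ZnO libraries 1, 2 and 3. The mean was 1585 ± 116 in controls and 1484 ± 191 in ZnO (SD, n = 3 each), so the groups overlapped and ZnO library 2 was below all the others. The summed level of the mitosis entries ran 1327, 1236 and 1439.5 CPM in controls and 1289.9, 1346 and 1527 CPM in ZnO, with means of 1334 ± 102 and 1388 ± 124 (SD, n = 3 each). Here ZnO library 2 lay inside the range of the others. Within that sum, mki67 and top2a together were lowest in ZnO library 2, at 433 CPM against 479 to 620 CPM in the others. Mitotic cyclins with their kinase (182 CPM), mitotic kinases and passengers (148), anaphase genes (124) and motor, kinetochore and cytokinesis genes (307) each summed highest there. Spindle checkpoint genes did not. The sums that did were nearly as high in ZnO library 3, at 179, 145, 119 and 304 CPM.

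The 2 sums did not keep to one ratio across libraries. Mitosis entries summed to 0.820, 0.735 and 0.989 of the replication entries in control libraries 1, 2 and 3. The ratio was 0.832, 1.06 and 0.935 in ZnO libraries 1, 2 and 3. The groups overlapped (0.848 ± 0.129 and 0.943 ± 0.115, SD, n = 3 each), with control library 2 at the low end and ZnO library 2 at the high end. The place of ZnO library 2 rested largely on the 6 MCM ring entries, which summed to 683, 703 and 632 CPM in controls and 668, 438 and 659 CPM in ZnO. Fork entries summed to 548 CPM in ZnO library 2 and 555 CPM in control library 3. Deoxynucleotide supply entries were at 234 and 217 CPM in these 2 libraries. Control library 2 was the lowest of the 6 for 15 of 29 mitosis entries and for 0 of 30 replication entries, against 17.3% of all tested entries.

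**Figure D2:**
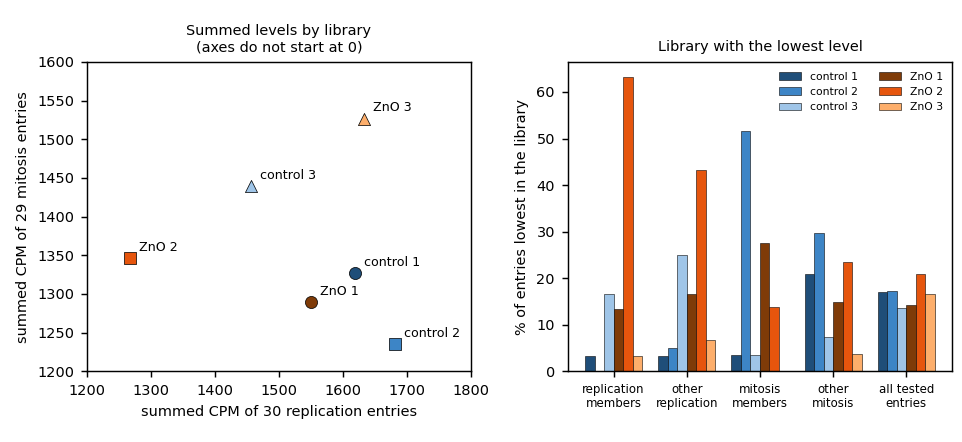
Left, the summed CPM of the 30 replication entries (horizontal) and of the 29 mitosis entries (vertical) in each of the 6 libraries, with axes that do not start at 0. Right, the percentage of entries for which each library is the lowest of the 6, for member lists, other pathway genes and all tested entries; ZnO library 2 is lowest for 19 of 30 replication entries and control library 2 for 15 of 29 mitosis entries.

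The MCM helicase ring, made of related ATPases that unwind DNA at the fork, showed the pattern in every subunit. mcm2 stood at 119, 123 and 118 CPM in control libraries 1, 2 and 3, and at 123, 68.8 and 126 CPM in ZnO libraries 1, 2 and 3. ZnO libraries 1 and 3 lay just above the controls, and ZnO library 2, with 1795 counts of mcm2, lay far below all of them. mcm4 stood at 109, 116 and 105 CPM in controls and at 108, 68.9 and 112 CPM in ZnO. mcm6 stood at 123, 132 and 109.7 CPM in controls and at 126, 79.8 and 121 CPM in ZnO. In both, ZnO library 2 lay apart and the other ZnO libraries lay within the control range.

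The remaining subunits were also lowest in ZnO library 2. mcm3 stood at 105, 101 and 85.3 CPM in controls and at 95.3, 62.4 and 91.5 CPM in ZnO. mcm5 stood at 84.4, 90.4 and 76.3 CPM in controls and at 88.5, 58.9 and 86.7 CPM in ZnO. In both, ZnO libraries 1 and 3 lay within the control range. mcm7 stood at 143, 141 and 137 CPM in controls and at 127, 99.2 and 122 CPM in ZnO, so it was the subunit whose groups did not overlap.

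None of these passed. The log2 fold change of mcm2 was -0.18 (95% interval -0.67 to 0.31, edgeR adjusted p = 0.738), and it was 0.04 without ZnO library 2. Those of mcm3, mcm4, mcm5 and mcm6 were -0.22, -0.19, -0.10 and -0.16, and became -0.07, -0.01, 0.05 and 0.01 without that library. mcm7 had -0.27 (-0.55 to 0.01, edgeR adjusted p = 0.327) and kept -0.19 (-0.40 to 0.03, edgeR adjusted p = 0.426) without it. The median coefficient of variation of the 6 subunits was 6.85% in controls and 22.4% in ZnO, where over all tested entries it was 14.6% and 16.4%.

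**Figure D3:**
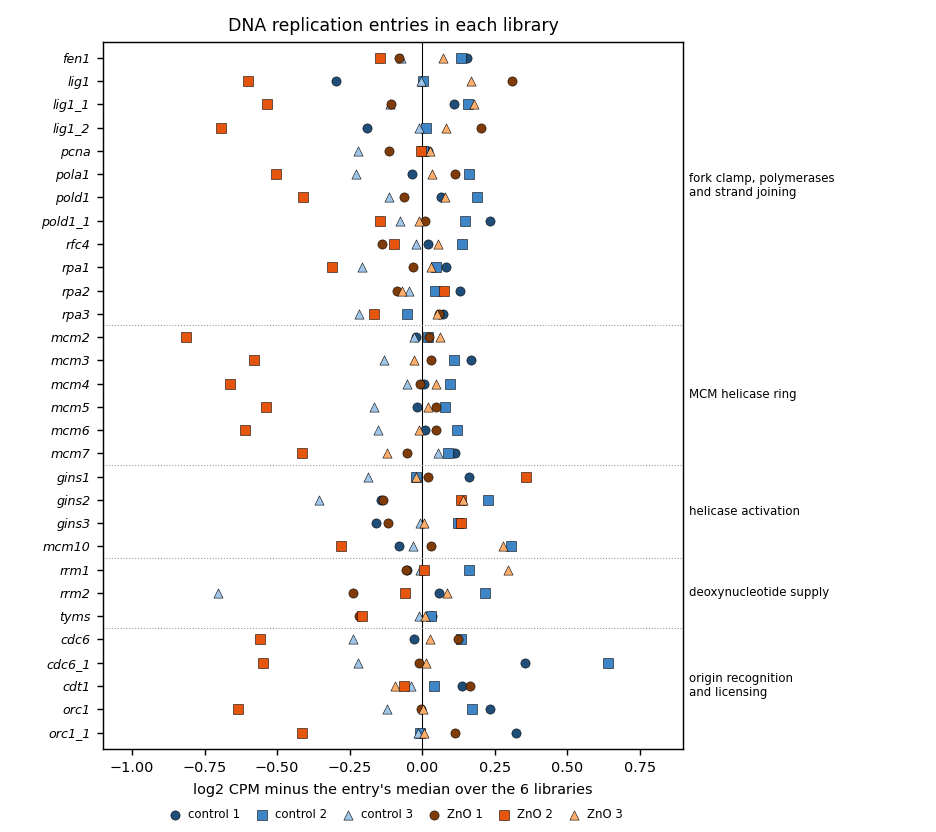
Each of the 30 replication entries in each library, as log2 CPM minus the entry's median over the 6 libraries (horizontal axis), grouped by role, with blue symbols for controls and brown to orange for ZnO. ZnO library 2 (orange squares) is displaced to the left for the MCM ring, lig1, pola1, pold1, rpa1, cdc6 and orc1 and not for pcna, rrm1 or the gins genes.

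Origin recognition and licensing genes followed the ring in part. orc1, the ATPase subunit of the origin recognition complex, stood at 11.8, 11.3 and 9.23 CPM in controls and at 10.02, 6.44 and 10.1 CPM in ZnO (log2 fold change -0.29, 95% interval -0.75 to 0.18). cdc6, which loads the ring, stood at 10.8, 12.1 and 9.36 CPM in controls and at 12.03, 7.47 and 11.3 CPM in ZnO (log2 fold change -0.07, 95% interval -0.53 to 0.39). In both, ZnO library 2 was the lowest library and the other ZnO libraries lay within the control range. Without ZnO library 2 the log2 fold changes were -0.12 for orc1 and 0.10 for cdc6. The second cdc6 entry, cdc6_1, was low and variable, at 3.28, 4.02 and 2.18 CPM in controls and 2.53, 1.72 and 2.57 CPM in ZnO, and had the lowest log2 fold change of the replication list (-0.47 ± 0.29, SE, edgeR adjusted p = 0.472). cdt1, the loading partner of Cdc6, did not share the pattern: it stood at 7.62, 7.11 and 6.74 CPM in controls and 7.77, 6.63 and 6.48 CPM in ZnO.

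Helicase activation genes split. mcm10 stood at 8.37, 10.95 and 8.66 CPM in controls and at 9.05, 7.28 and 10.8 CPM in ZnO, lowest again in ZnO library 2 (log2 fold change -0.05, 95% interval -0.48 to 0.39). gins1, a subunit of the GINS complex that joins Cdc45 and the ring, stood at 4.37, 3.84 and 3.41 CPM in controls and at 3.95, 5.02 and 3.84 CPM in ZnO, and was highest in ZnO library 2. It had the highest log2 fold change of the replication list (0.14, 95% interval -0.31 to 0.59, edgeR adjusted p = 0.781). gins2 and gins3 ran from 4.24 to 6.38 and from 3.81 to 4.67 CPM over all libraries, with ZnO library 2 in the upper part of both ranges. The entries of the 3 gins genes are low, with 108 to 181 counts per library.

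At the fork, pcna, the sliding clamp and the replication entry with the most counts, was even across libraries. It stood at 251, 248.5 and 213 CPM in controls and at 229, 247 and 253 CPM in ZnO, with a log2 fold change of 0.03 (95% interval -0.23 to 0.30, edgeR adjusted p = 0.918). ZnO library 2 was at its median for pcna, so that pcna amounted to 0.564 of the summed CPM of the ring there and to 0.336 to 0.383 in the other 5 libraries. pola1, the catalytic subunit of the primase-polymerase, stood at 45.6, 52.3 and 39.9 CPM in controls and at 50.6, 32.9 and 47.9 CPM in ZnO. DNA ligase 1 had 3 entries in the table, and their sum was 74.4, 83.4 and 77.1 CPM in controls and 87.05, 52.5 and 88.2 CPM in ZnO. The 3 lig1 entries and pola1 were all lowest in ZnO library 2. The log2 fold changes of lig1, lig1_1 and lig1_2 were 0.10, -0.18 and -0.02. Without ZnO library 2 they were 0.32, -0.03 and 0.19, and each interval held 0. The delta polymerase gene pold1, the single-strand binding protein genes rpa1, rpa2 and rpa3, the flap nuclease gene fen1 and the clamp loader gene rfc4 had log2 fold changes between -0.17 and 0.05, each with an interval that held 0. Of these, the 2 pold1 entries, rpa1 and fen1 were also lowest in ZnO library 2, which was thus lowest for 8 of the 12 fork entries.

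None of the 3 deoxynucleotide supply genes was lowest in ZnO library 2. rrm1, the large subunit of ribonucleotide reductase, stood at 134, 156 and 138 CPM in controls and at 134, 139.8 and 171 CPM in ZnO. rrm2, the small subunit, was lowest in control library 3, at 36.9 CPM against 51.0 to 69.9 CPM in the other 5 libraries. tyms, which makes thymidylate, stood at 43.3, 43.2 and 42.0 CPM in controls and at 36.4, 36.6 and 42.6 CPM in ZnO (log2 fold change -0.15 ± 0.11, SE, edgeR adjusted p = 0.538). Taking the 30 replication entries one by one, 12 lay more than 0.5 log2 units below their own 6-library median in ZnO library 2. Every lig1 and cdc6 entry was among the 12. In the other 5 libraries 1 entry lay that low, rrm2 in control library 3. The share of all tested entries that lay so low was not counted.

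Of the G1 and G1/S regulators, ccnd1 came closest to a difference between groups. Cyclin D1 links growth signals to entry into the cycle. ccnd1 stood at 64.3, 51.0 and 59.4 CPM in controls and at 69.8, 76.4 and 78.8 CPM in ZnO, so each ZnO library was above each control. The means were 58.2 ± 6.73 and 75.0 ± 4.67 CPM (SD, n = 3 each), with a log2 fold change of 0.36 ± 0.12 (SE, 95% interval 0.09 to 0.64). The unadjusted edgeR p was 0.0159 and the edgeR adjusted p = 0.205, over alternatives 0.188 to 0.422, so it did not pass. ccne2, a cyclin E gene, stood at 11.1, 11.6 and 9.96 CPM in controls and at 14.3, 11.5 and 11.5 CPM in ZnO. cdk2, its kinase partner, stood at 13.3, 14.8 and 12.6 CPM in controls and at 13.8, 12.5 and 13.9 CPM in ZnO, with overlapping groups for both.

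**Figure D4:**
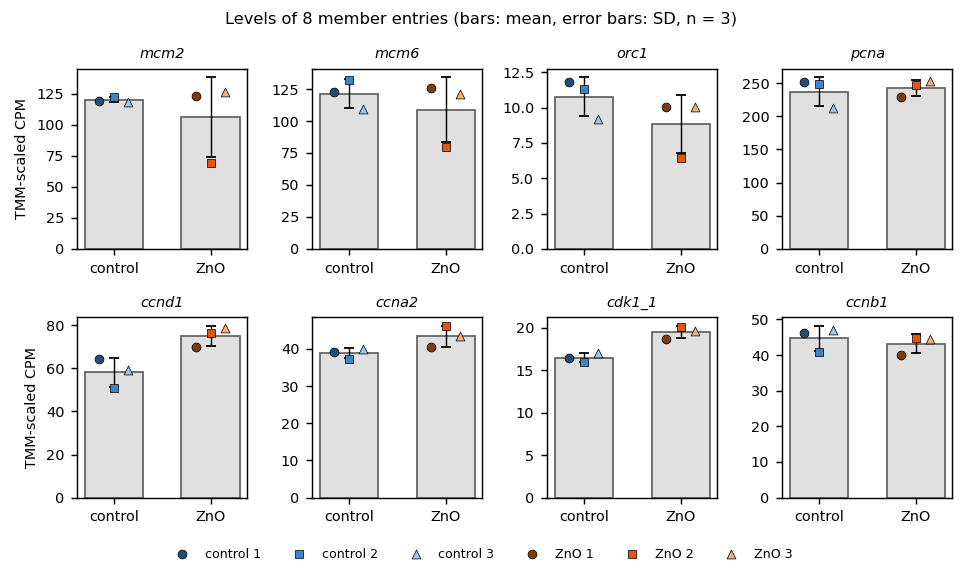
TMM-scaled CPM of 8 member entries in each library, with bars for the mean of 3 libraries, error bars for the SD and points for single libraries, every axis starting at 0. mcm2, mcm6 and orc1 have 1 low ZnO library, pcna and ccnb1 overlap between groups, and ccnd1, ccna2 and cdk1_1 do not.

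Among mitotic cyclins and their kinase, differences between groups were small. ccna2, cyclin A, stood at 39.3, 37.3 and 39.9 CPM in controls and at 40.5, 46.1 and 43.5 CPM in ZnO, without overlap (log2 fold change 0.16, 95% interval -0.08 to 0.40, edgeR adjusted p = 0.501). cdk1, the mitotic kinase, had 2 entries. The larger, cdk1, stood at 41.8, 34.8 and 44.1 CPM in controls and at 41.5, 46.9 and 51.5 CPM in ZnO. The smaller, cdk1_1, stood at 16.4, 15.96 and 17.0 CPM in controls and at 18.7, 20.1 and 19.6 CPM in ZnO, without overlap (log2 fold change 0.24 ± 0.11, SE, edgeR adjusted p = 0.332). Their sum overlapped between groups, at 58.2, 50.7 and 61.2 CPM in controls and 60.2, 67.0 and 71.1 CPM in ZnO.

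The B cyclins gave no such separation. ccnb1, cyclin B1, stood at 46.2, 40.8 and 47.1 CPM in controls and at 40.1, 44.7 and 44.6 CPM in ZnO (log2 fold change -0.05, 95% interval -0.30 to 0.20). Set against mcm2, ccnb1 had a ratio of 0.326 to 0.398 in 5 libraries and of 0.650 in ZnO library 2. There ccnb1 deviated by 0.0016 log2 units from its 6-library median and mcm2 by -0.81, so the ratio repeats the low mcm2 level. ccnb3_1, an entry of cyclin B3, was highest in ZnO library 2, at 11.5 CPM against 5.95 to 9.04 CPM in the other 5 libraries. ccnb2 and the first ccnb3 entry lay between 3.71 and 6.97 CPM in all libraries, and both were also highest in ZnO library 2.

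Mitotic kinases and chromosomal passengers overlapped between groups. Aurora A and B (aurka, aurkb) build the spindle and correct kinetochore attachment, plk1 is the Polo-like kinase, and birc5a (survivin) belongs to the passenger complex. plk1_1, the larger plk1 entry, stood at 33.4, 30.1 and 37.2 CPM in controls and at 30.6, 39.7 and 36.3 CPM in ZnO (log2 fold change 0.08, 95% interval -0.23 to 0.39). The log2 fold changes of aurka, aurkb, plk1 and birc5a were -0.03, 0.12, 0.18 and -0.06, and each interval held 0.

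Spindle checkpoint genes hold anaphase until all chromosomes are attached, and their median log2 fold change was 0.01. bub1, a checkpoint kinase, stood at 58.9, 51.0 and 71.0 CPM in controls and at 54.3, 63.1 and 64.1 CPM in ZnO (log2 fold change 0.00, 95% interval -0.32 to 0.33). Its highest and lowest libraries were both controls. bub1bb, ttk and mad2l1 had log2 fold changes of 0.09, 0.01 and 0.01.

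The proliferation marker mki67 and the chromosome-untangling enzyme gene top2a were the mitosis entries with the most counts. mki67 stood at 284, 274 and 328 CPM in controls and at 288, 247 and 357 CPM in ZnO, with means of 295 ± 28.7 and 297 ± 55.2 CPM (SD, n = 3 each). top2a stood at 218, 205 and 225 CPM in controls and at 219, 186 and 263 CPM in ZnO. Both were lowest in ZnO library 2 and highest in ZnO library 3, so the ZnO group spanned the control group. Their log2 fold changes were 0.01 (95% interval -0.35 to 0.37) and 0.04 (-0.29 to 0.37).

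Genes of anaphase promotion overlapped too. cdc20, the activator of the anaphase-promoting complex, stood at 39.2, 35.9 and 43.3 CPM in controls and at 37.6, 48.4 and 41.9 CPM in ZnO (log2 fold change 0.11, 95% interval -0.19 to 0.41). ube2c, its ubiquitin-conjugating enzyme, had a log2 fold change of 0.13 (-0.15 to 0.42). espl1, which encodes separase, had 4 entries. espl1_1 had the highest log2 fold change of the mitosis list (0.29, -0.34 to 0.92), with 10.9, 7.996 and 17.6 CPM in controls and 12.7, 14.8 and 17.3 CPM in ZnO. espl1_3 had the lowest (-0.22, -0.67 to 0.23), with 8.01, 8.70 and 6.799 CPM in controls and 8.22, 5.33 and 6.65 CPM in ZnO. The sum of the 4 espl1 entries ran from 33.6 to 39.1 CPM over all libraries, while the first entry alone ran from 3.18 to 7.03 CPM, so how reads were shared among the entries is uncertain.

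Motors, kinetochore and cytokinesis genes completed the list. kif11, the motor that pushes spindle poles apart, stood at 107, 96.5 and 124 CPM in controls and at 108, 116 and 123 CPM in ZnO (log2 fold change 0.08, 95% interval -0.21 to 0.36). cenpf, a kinetochore protein gene, was highest in ZnO library 2 at 106 CPM, against 76.8 to 89.1 CPM in the other 5 libraries. kif23 and ect2, which act in cytokinesis, had log2 fold changes of -0.04 and 0.05.

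**Figure D5:**
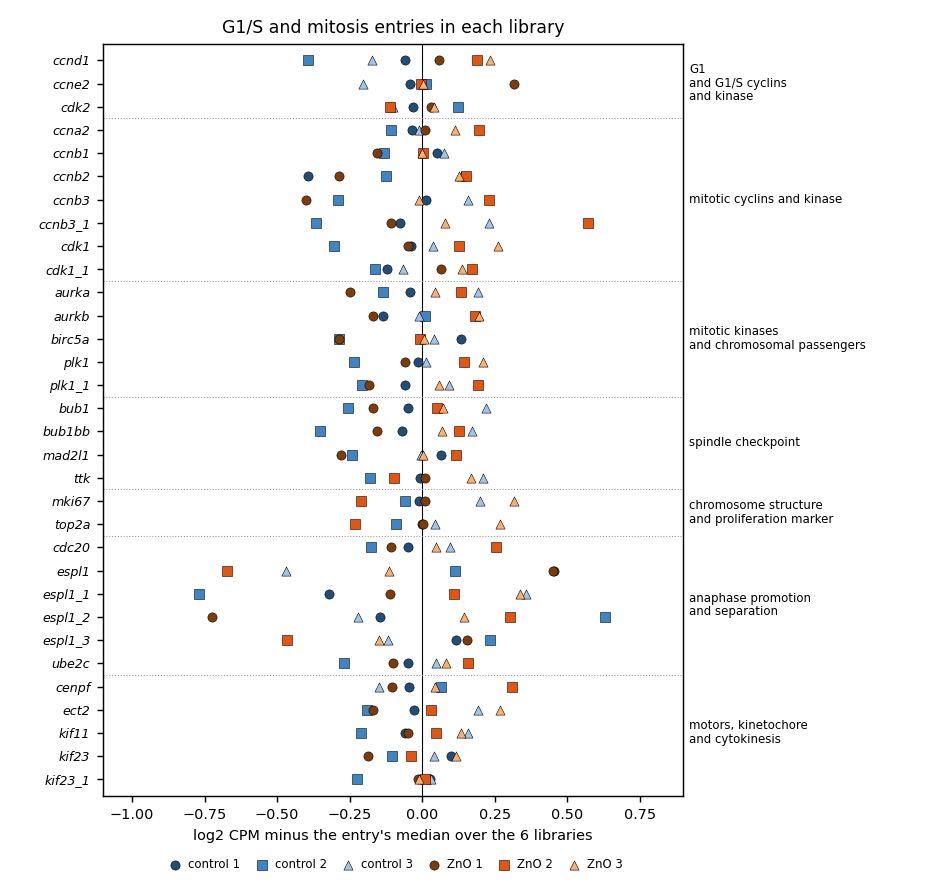
Each of the 3 G1/S entries and 29 mitosis entries in each library, as log2 CPM minus the entry's median over the 6 libraries (horizontal axis), grouped by role. Control library 2 (blue squares) is lowest for 15 of the 29 mitosis entries, against 17.3% of all tested entries. ZnO library 2 (orange squares) is highest for 10 of the 29, against 23.0% of all tested entries.

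The other genes of the pathway did not pass the test either. None of 60 tested entries of other replication genes, 81 of other mitosis genes and 27 of cell cycle transcription factors was called by edgeR, DESeq2 or limma-voom. At an unadjusted edgeR p under 0.05 the counts were 0, 0 and 1. Median log2 fold changes were -0.07 for other replication genes (17 positive, 43 negative), 0.06 for other mitosis genes (56 positive, 25 negative) and 0.02 for transcription factors.

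The order of the libraries was counted in these genes too. ZnO library 2 was lowest for 26 of the 60 other replication entries (43.3%, against 21.0% of all tested entries). Among them was dnmt1, the maintenance DNA methyltransferase, at 95.3, 118 and 86.9 CPM in controls and 104, 64.8 and 104 CPM in ZnO. Its partner uhrf1 stood at 67.2, 64.7 and 59.5 CPM in controls and at 63.9, 45.7 and 68.5 CPM in ZnO. ZnO library 2 was lowest for 19 of the 81 other mitosis entries (23.5%), near its 21.0% of all tested entries. It was highest for 15 of the 81 (18.5%), below its 23.0% of all tested entries. Control library 2 was lowest for 24 of the 81 (29.6%, against 17.3% of all tested entries). ZnO library 3 was highest for 41 of the 81 (50.6%, against 16.7% of all tested entries).

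The entries with the smallest p in these 3 lists had the following values. orc3, gmnn_1 (an entry of the licensing inhibitor geminin) and exo1_1 (an exonuclease) had log2 fold changes of -0.33, -0.56 and -0.40, with edgeR adjusted p of 0.364, 0.378 and 0.393. The condensin gene ncapd3 had -0.23, and the mitotic genes kifc1 and ckap2l had 0.22 and 0.20 (edgeR adjusted p of 0.416, 0.431 and 0.437). Among transcription factors, rbl2, a retinoblastoma-family repressor, had 0.35 (95% interval 0.07 to 0.64, edgeR adjusted p = 0.229), e2f7, an atypical repressive E2F, had -0.35 and e2f5 had -0.59.

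Log2 fold changes ran from -1.03 to 0.63 among inhibitors and checkpoint genes, 18 negative and 10 positive with a median of -0.13. cdkn1a, the p21 inhibitor of cyclin-dependent kinases, stood at 31.3, 17.0 and 24.7 CPM in controls and at 16.5, 5.98 and 13.3 CPM in ZnO. Each ZnO library was below each control (log2 fold change -1.03 ± 0.38, SE), yet the edgeR adjusted p = 0.267 (0.0518 to 0.487 over alternatives) did not pass. gadd45ba, a stress-induced growth arrest gene, stood at 83.4, 97.1 and 58.9 CPM in controls and at 53.4, 52.8 and 43.0 CPM in ZnO. Its log2 fold change was -0.68 (edgeR adjusted p = 0.150), and DESeq2, which called 4.67% of all entries, called it lower (adjusted p = 0.0288). ccng2, an atypical cyclin linked to arrest, stood at 48.3, 80.5 and 40.0 CPM in controls and at 31.4, 35.3 and 22.1 CPM in ZnO. It had -0.93 (edgeR adjusted p = 0.193), and DESeq2 called it lower as well (adjusted p = 0.0226).

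cdkn2d, a p19-type inhibitor gene at 6 to 23 counts per library, had a log2 fold change of -0.89 (95% interval -1.90 to 0.11, edgeR adjusted p = 0.369), with each ZnO library below each control. Groups did not overlap at 4 of the 28 tested inhibitor and checkpoint entries, all lower in ZnO, where 11.2% of all tested entries were so. btg2, an antiproliferative gene, had -0.67 (-1.68 to 0.34, edgeR adjusted p = 0.498), with overlapping groups. cdkn1ba, a p27 gene, stood at 82.4, 82.6 and 80.0 CPM in controls and at 56.6, 73.9 and 69.2 CPM in ZnO (edgeR log2 fold change -0.29, adjusted p = 0.296). cdkn1d, a p20 inhibitor known in zebrafish for its clock-controlled expression, ran from 4.24 to 18.2 CPM within the controls and from 10.6 to 16.9 CPM in ZnO (log2 fold change 0.63, 95% interval -0.73 to 1.98). wee1, which restrains Cdk1, was even, at 15.8 to 17.1 CPM in controls and 16.02 to 17.7 CPM in ZnO. In this list of 28 tested entries edgeR called 0 (3 at an unadjusted edgeR p under 0.05), limma-voom 0 and DESeq2 1. Over all tested entries 15.9% reached that unadjusted edgeR p, and DESeq2 called 4.67%. In the list of 13 other cyclins and kinases, which holds ccng2 and both ccng1 entries (log2 fold changes 0.21 and 0.12), edgeR called 0 (1 at an unadjusted p under 0.05), limma-voom 0 and DESeq2 1.

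Among markers of other cells in the tissue, edgeR called only neutrophil and pan-leukocyte entries. All 7 neutrophil marker entries had negative log2 fold changes. The test called 2 of them, ncf4 and csf3r (edgeR adjusted p = 0.0249 and 0.0496), against 0.428% of all tested entries. The 7 entries summed to 261 to 345 CPM in controls and 29.5 to 96.2 CPM in ZnO, lowest in ZnO library 2. In controls that sum was mostly mpx (185 to 286 CPM), which stood at 4.71 CPM in ZnO library 2 and was not called (edgeR adjusted p = 0.264). Of the 7 entries, 1 was lowest in ZnO library 2, 4 in ZnO library 3 and 2 in ZnO library 1. All 6 pan-leukocyte entries were negative, 2 of them called, with sums of 2938 to 3864 CPM and 2061 to 2705 CPM. Most of these sums was cd74a and cd74b (1665 and 759 of 2938 CPM in control library 1), with log2 fold changes of -0.38 and -0.46. Those of the other pan-leukocyte entries ran from -0.85 to -1.04. All 4 erythrocyte entries were positive, none called, with sums of 10.0 to 57.1 CPM in controls and 59.9 to 184 CPM in ZnO, highest in ZnO library 2. hbaa1 made up most of that sum (162 CPM in ZnO library 2), and 3 of the 4 entries were highest in ZnO library 3. No marker in these 3 lists was at 0 in any library. Macrophage and lymphocyte entries were negative for 5 of 5 and 6 of 7, with 0 called by edgeR (2 and 1 at an unadjusted p under 0.05), and their sums overlapped between groups (263 to 396 and 196 to 310 CPM for macrophages). All 6 osteoblast entries were positive, with 0 called by edgeR and 3 at an unadjusted edgeR p under 0.05, which 15.9% of all tested entries reached. The groups did not overlap at 3, all higher in ZnO (11.3% of all tested entries), among them bglap (log2 fold change 1.75) and entpd5a (0.68). Osteoblast sums ran from 4952 to 7681 CPM in controls and from 6797 to 8272 CPM in ZnO, lowest in control library 2 and highest in ZnO library 2. That order was mostly col10a1a, which made up 7928.5 of 8272 CPM in ZnO library 2. Of the 6 entries, 3 were highest in ZnO library 2. The others, sp7, runx2a and entpd5a, were highest in control library 1, ZnO library 1 and ZnO library 3. Epidermal entries split into 4 positive and 4 negative with 0 called (0 at an unadjusted edgeR p under 0.05). Their sum was also highest in ZnO library 2, where the keratin entry krt5_1 alone made up 44057 of 54944 CPM. In that library 3 of the 8 epidermal entries, all keratins, were highest, and 3, cdh1 and the tp63 entries, were lowest. Sums of blastema and distal fin markers overlapped, at 4722 to 7244 CPM in controls and 6985 to 8067 CPM in ZnO, and were lowest in control library 2. They were mostly and1 and and2 (5237 and 1703 of 7244 CPM in control library 1). Of the 11 entries 9 were positive and 2 negative, with 0 called and 3 at an unadjusted edgeR p under 0.05. Groups did not overlap at msx3 and and2, higher in ZnO (11.3% of all tested entries), and at 1 aldh1a2 entry, lower in ZnO (11.2%). The 2 tested endothelial entries, both of kdrl, were negative with 0 called, and both were lowest in ZnO library 2. The part of these cells in the levels of replication and mitosis genes was not tested.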

How the data were processed

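Per the labels' protocols, libraries of poly(A) RNA (integrity number over 7) were read from both ends, 150 bases each. The authors deposited 1 table of whole-number counts for each gene entry and library, without scaling. The submitters' processing notes name GRCz11, BWA, HTSeq, cutadapt and DESeq2, with no role for each; versions, annotation, strand setting and the handling of spliced and multiply mapping reads are not given in these sources. Counts of near-identical or overlapping entries are therefore less certain.

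Columns were matched to samples by library name, and no 2 libraries were alike. Entries were filtered with filterByExpr (minimum count 10), which kept 25962 of 53709 entries with 99.9% of counts, scaled by TMM and passed to the quasi-likelihood test of edgeR (robust dispersion, no covariates), 2-sided, with Benjamini-Hochberg adjustment over all tested entries at 0.05. The common biological coefficient of variation was 0.221. Intervals are the coefficient with its SE and the t quantile of the same fit. Deviations from the 6-library median use log2 CPM with a prior count of 2. The members and lists were chosen with earlier results of these data known. Named genes follow a rule: per role the entry with the highest mean CPM, per list the 3 smallest p and the extreme fold changes, pcna, mki67, top2a, the MCM ring, the G1/S genes, cdkn1a, cdkn1d and wee1. Other members, dnmt1, uhrf1, cdkn2d, btg2, bglap and entpd5a were named after their values were seen, and so was the library pattern. Of the 50 member symbols, 49 are in the RefSeq gene table (GRCz12tu, used for names only). Of the other pathway lists, genes with an entry numbered 50 of 50 (other replication), 64 of 67 (other mitosis), 24 of 24 (transcription factors), 24 of 24 (inhibitors) and 14 of 15 (other cyclins and kinases). Transcript lengths were not used here. Sums and ratios over genes therefore weigh most the entries with the most counts, and they are read only across libraries.

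Alternatives were DESeq2, limma-voom, other scalings and filters, a replicate block, summed entries and each library left out. The fit was tested on simulated data of ZnO against control (25534 entries): 10% of 50 entries changed 1.5-fold, 68% of 50 changed 2-fold and 100% of 50 changed 4-fold were recovered, and 7 of 25334 unchanged entries were called. Tests ran in R 4.3.3 with DESeq2 1.42.0, limma 3.58.1 and edgeR 4.0.16. Tables and plots were made with numpy 2.4.6, matplotlib 3.10.9 and pandas 2.3.3 in Python 3.11.15.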

Additional observations from a re-analysis of the deposited data

How the results depend on the processing

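Under all 14 alternatives 0 replication, 0 G1/S and 0 mitosis entries were called. The median log2 fold change of the replication entries stayed between -0.17 and -0.01, and that of the mitosis entries between -0.01 and 0.13; that of the 3 G1/S entries ran from 0.0635 to 0.2429 with 1 library left out. Intervals within 2-fold numbered 61 of 62 in the other settings that kept all 6 libraries and all 62 entries and gave intervals, and 57 (without control library 3) to 61 with 1 library left out. Those within 1.5-fold numbered 40 to 51 and 34 (without ZnO library 3) to 52 (without ZnO library 2), against 45 reported. The count over all entries depended on the setting: 111 in the reported fit, 1194 by DESeq2, 55 by limma-voom, 405 without a filter, 32 with the replicate block and 12 (without ZnO library 3) to 369 (without ZnO library 1) with 1 library left out, and 25 to 34 without any 1 control and 28 without ZnO library 2. DESeq2 called 1 entry among the inhibitors and 1 among other cyclins and kinases, where the reported fit called 0. Same-numbered libraries did not deviate together (correlations 0.01, -0.05 and 0.08, against -0.18 to 0.16 for differently numbered ones). With 3 libraries per group this cannot exclude a pairing, which the labels do not state. The replicate block called 0 members.

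Of 45 named genes, 17 took another sign in 1 or more alternatives, all of them without a call; the cause was not tested. With 1 library left out the log2 fold changes ran from -0.0492 to 0.0756 for pcna, -0.19 to 0.0837 for mcm10, -0.0619 to 0.12 for rrm1, -0.21 to 0.10 for cdc6, -0.0049 to 0.23 for gins1, -0.0204 to 0.17 for plk1_1, -0.10 to 0.13 for bub1, -0.14 to 0.11 for mki67, -0.0036 to 0.18 for cdc20, -0.0067 to 0.17 for kif11, -0.10 to 0.14 for top2a, -0.32 to 0.0394 for mcm2, -0.21 to 0.0523 for mcm5, -0.29 to 0.0099 for mcm6, -0.0704 to 0.0529 for cdk2 and -0.0073 to 0.19 for ccng1_1. The value of bub1 was -0.0031 by DESeq2 and -0.0032 with DESeq2's size factors in edgeR, that of mki67 -0.0025 by limma-voom and -0.0020 with the replicate block, and that of wee1 -0.0201 with entries of 1 symbol summed. With 3 libraries per group, 10% of simulated 1.5-fold changes were recovered, so changes of that size can be missed. The whole table was simulated at its dispersion trend, without a deviating library. The changed entries were drawn only from entries above a set mean level. Members such as cdc6_1, orc1_1, gins1, gins3 and ccnb3 (means of 2.72 to 4.81 CPM) lay below it. The rate for the members can therefore differ.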
